A study of Mus musculus with 8 samples.

Results

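All but Ccng1 of the 10 genes described here help set whether a cell in G1 commits to DNA synthesis. They are the Cdk inhibitors Cdkn1a (p21), Cdkn1b (p27), Cdkn1c (p57) and Cdkn2c (p18) and the D cyclins Ccnd1, Ccnd2 and Ccnd3. The kinases Cdk4 and Cdk6 and cyclin G1 (Ccng1) complete the list. The 10 genes were chosen by name as quiescence and G1 control genes, and all 10 were among the 18174 gene symbols of the tables. Single LT-HSC, the long-term hematopoietic stem cells, were profiled with mCEL-Seq2, a plate method that tags each cell and each molecule, the latter with a unique molecular identifier (UMI). The cells came from the bone marrow of untreated male C57BL/6J wildtype mice aged 18 months and were sorted as Lin-CD150+CD48-CD34-Kit+Sca1+, in one group also Dlk1+ and in the other Dlk1-. Each group had 4 libraries of 96 wells. The table names place replicates 1 and 2 on plate 5 and the other replicates (3 and 4) on plate 6. The labels name no animal behind a library, so the p-values below measure the spread between libraries, part of which may be technical.

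In G1, a D cyclin binds Cdk4 or Cdk6, and the pair phosphorylates the retinoblastoma protein, which releases E2F factors and the genes of DNA synthesis. Inhibitors of the Cip/Kip family (Cdkn1a, Cdkn1b, Cdkn1c) act on cyclin-bound kinases, whereas those of the Ink4 family (Cdkn2c) bind Cdk4 and Cdk6 alone. Most adult LT-HSC rest outside the cycle, and Cdkn1c and Cdkn1b are known for their part in holding them there. Dlk1, the protein used for the sort, and Cdkn1c are both products of imprinted genes.

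Cells were the barcodes of a library's own range, 1 to 96 for Dlk1+ and 97 upwards for Dlk1-, that carried at least 1000 transcripts. Barcodes 17, 20 to 24 and 29 to 32 were left out. This gave 220 Dlk1+ and 321 Dlk1- cells with 38488 to 496831 UMIs in a library. Barcode range and sort cannot be told apart. Barcodes mark wells and recur between libraries: 84 of 86 numbers used in Dlk1+ and 96 of 96 in Dlk1- stood in 2 or more libraries, and 0 in both sorts. Dlk1+ replicate 3 stood apart by depth, with 26 cells and a median of 1295.5 UMIs per cell, against 3403 to 5521 in the other 7 libraries. Dlk1 transcripts followed the sort, at 507 ± 146.1 CPM in Dlk1+ libraries against 28.6 ± 23.9 CPM in Dlk1- ones (SD, n = 4 each), where CPM is a gene's transcripts scaled to the same total in every library. The 10 HSC markers listed for the purpose summed to 1766 to 2949 CPM in Dlk1+ and to 2110 to 2782 CPM in Dlk1- libraries. Of 5 T cell markers, 4 were at 0 in all libraries. The other, Lck, had 0 to 19.5 CPM in Dlk1+ and 6.31 to 21.7 CPM in Dlk1- libraries. Megakaryocyte markers summed to 68.3 to 307 CPM in Dlk1+ and 91.1 to 267 CPM in Dlk1- libraries. Endothelial markers summed to 51.2 to 105 CPM in Dlk1+ and 56.4 to 122 CPM in Dlk1- libraries. Markers of stroma summed to 28.5 to 107 CPM in Dlk1+ and to 7.73 to 30.4 CPM in Dlk1- libraries. Cxcl12 had 25.3, 68.3, 0 and 6.57 CPM in Dlk1+ replicates 1 to 4 and 0 to 8.68 CPM in Dlk1- libraries, Col1a2 7.58 to 51.2 and 1.93 to 17.4 CPM, and Dcn was at 0 in 7 of 8 libraries. None of the 5 was at 0 in all libraries, and their part in the differences below was not tested. In Dlk1+ replicate 4, 1 barcode held 36327 UMIs, 8.07% of that library, and 1958 UMIs of myeloid markers such as S100a8 and S100a9, against 198 in the other 80 cells together. It carried no UMI of Dlk1 or Cdkn1a, and results are also given without it. The 728 unused barcodes of the other range, with a median of 33 UMIs each, held 72 UMIs of the 10 genes, against 4005 in the cells.

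Promoter windows of RefSeq (GRCm38.p6) were at hand for 7 of the 10 genes: Cdkn1a, Cdkn1b, Cdkn2c, Ccnd3, Cdk4, Cdk6 and Ccng1. The 250 bases before a start are shown for the 2 most abundant inhibitors, whose ratio did not overlap between the sorts, and for the 2 kinases, whose ratio did not either. Capitals mark GGGCGG (the core of an Sp1 box) in Cdkn1a, CCAAT in Cdkn1b and CACGTG (the canonical E-box) in Cdk4 and Cdk6, each searched on both strands.
Cdkn1a, second of 2 starts, chr17:29093519-29093768, plus strand: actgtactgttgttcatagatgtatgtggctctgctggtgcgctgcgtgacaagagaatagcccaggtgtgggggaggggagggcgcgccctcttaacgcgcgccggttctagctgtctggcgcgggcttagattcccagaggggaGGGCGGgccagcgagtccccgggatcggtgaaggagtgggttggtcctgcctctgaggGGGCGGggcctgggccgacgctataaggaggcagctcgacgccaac
Cdkn1b, chr6:134920151-134920400, plus strand: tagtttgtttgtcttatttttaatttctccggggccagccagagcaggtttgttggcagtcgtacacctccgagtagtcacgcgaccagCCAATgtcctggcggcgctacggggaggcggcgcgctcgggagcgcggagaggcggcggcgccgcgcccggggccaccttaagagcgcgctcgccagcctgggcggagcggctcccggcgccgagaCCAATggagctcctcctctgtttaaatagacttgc
Cdk4, chr10:127063285-127063534, plus strand: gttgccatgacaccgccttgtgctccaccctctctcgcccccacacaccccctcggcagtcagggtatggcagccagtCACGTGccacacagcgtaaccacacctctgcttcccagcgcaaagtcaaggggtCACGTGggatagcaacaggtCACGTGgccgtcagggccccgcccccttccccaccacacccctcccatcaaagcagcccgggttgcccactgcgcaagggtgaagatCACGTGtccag
Cdk6, chr5:3343643-3343892, plus strand: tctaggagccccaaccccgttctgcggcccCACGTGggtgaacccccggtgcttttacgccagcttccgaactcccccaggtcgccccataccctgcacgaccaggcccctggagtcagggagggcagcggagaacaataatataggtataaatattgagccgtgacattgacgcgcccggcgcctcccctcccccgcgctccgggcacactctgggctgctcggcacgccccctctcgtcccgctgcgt
The Cdk4 window held 4 matches to CACGTG and the Cdk6 window held 1. At least 1 such match was in 6.02% of all 32851 windows of this length, and 4 or more were in 7 windows. GGGCGG was found 2 times in the Cdkn1a window and in 32.7% of all windows, and CCAAT 2 times in that of Cdkn1b and in 33.8%. The p53 response element, searched by its consensus without a spacer, was met in full in none of the 10 windows of these genes and in 3 of all windows (0.00913%). With 1 base off, in a search added after the full one, it was in 2 of the 10 windows and in 25 of all windows (0.0761%), full matches included. These 2 stretches of 20 bases, which match 19 of the 20, are shown because Cdkn1a and Ccng1 are known targets of p53.
Cdkn1a, first of 2 starts, from base 200 of the window that begins at chr17:29090729, plus strand: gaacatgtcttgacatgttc
Ccng1, from base 56 of the window chr11:40755287-40755536, minus strand: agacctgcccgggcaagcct
No full match of one motif overlapped a full match of another in these windows. A match is a run of letters and says nothing on binding.

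Ccnd2 was the most abundant of the 10 genes in aged LT-HSC, and its level was above that of Cdk4, the next in order, in 8 of 8 libraries. UMIs count each molecule once from its 3' end, so levels of different genes can be compared with no correction for length. Over the 8 libraries Ccnd2 had 598 ± 209 CPM (SD), rank 163 of 18174 genes. The kinases followed, with Cdk4 at 312 ± 187 CPM and Cdk6 at 286 ± 145 CPM. Cdk4 was above Cdk6 in 5 of 8 libraries, so their order did not hold beyond the spread.
Cdkn1a was the leading inhibitor at 204 ± 118 CPM, above Cdkn1b (97.3 ± 38.8 CPM) in 7 of 8 libraries. Cdkn1c had 70.9 ± 25.3 CPM, and Cdkn1b was above it in 4 of 8 libraries. Ccnd1 had 52.2 ± 33.8 CPM, Ccnd3 26.1 ± 18.8 CPM, Ccng1 24.01 ± 15.6 CPM and Cdkn2c 16.1 ± 8.40 CPM. In this lower stretch neighbours kept their order in 3 to 6 of 8 libraries.

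**Figure D1:**
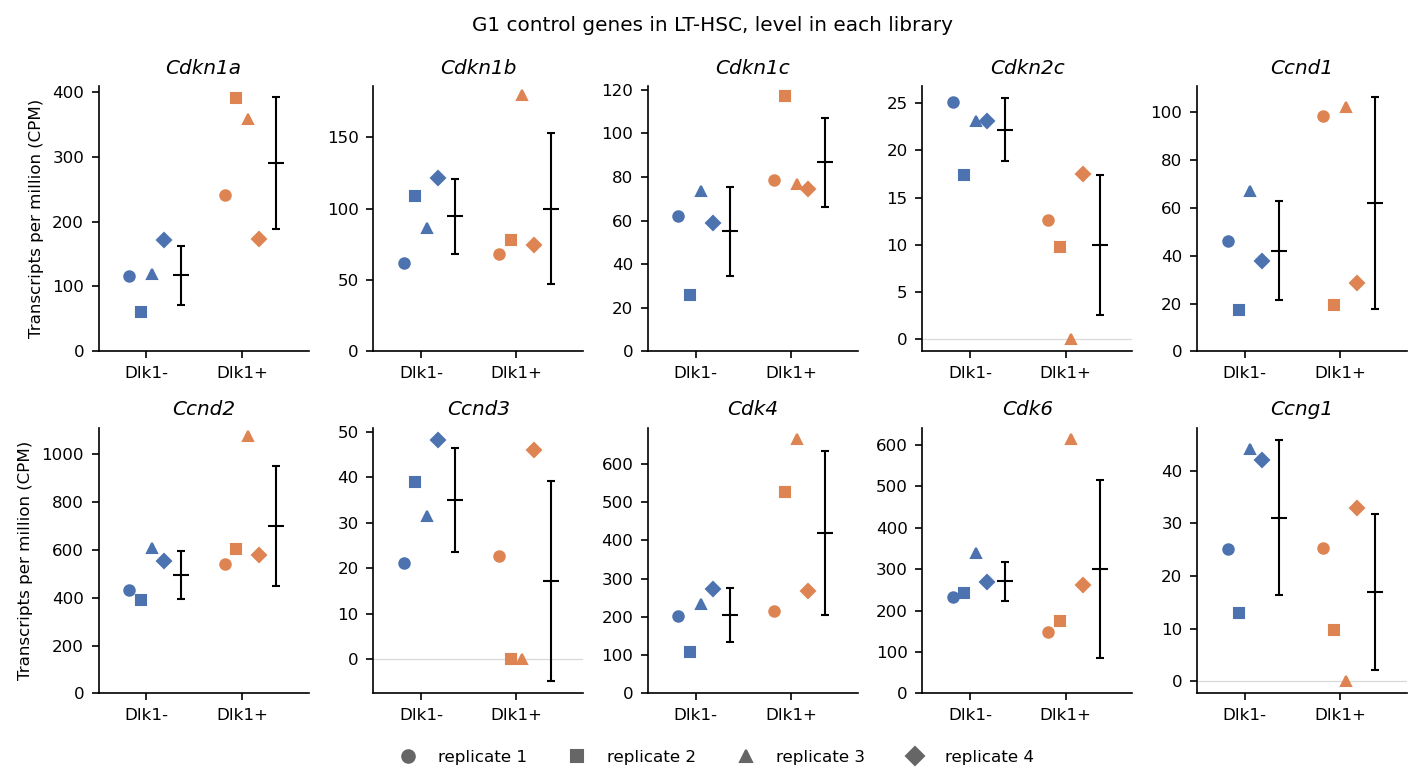
Level of each gene in each library in CPM (linear axis, own scale per gene), with Dlk1- in blue, Dlk1+ in orange, 1 symbol per replicate number, and the mean ± SD of 4 libraries in black. In these CPM, scaled to library totals alone, the Dlk1+ and Dlk1- libraries do not overlap for Cdkn1a and Cdkn1c. Dlk1+ replicate 3 (triangle) is the highest library for Ccnd2, Cdk4 and Cdk6.

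At equal depth the members were thinly covered. Each of the 497 cells with at least 2000 UMIs was thinned at random to 2000. A Ccnd2 UMI was then seen in 62.0% of these cells, a Cdk4 UMI in 34.6%, a Cdk6 UMI in 29.8% and a Cdkn1a UMI in 21.5%. Cdkn1b was seen in 13.9% of them, Cdkn1c in 12.1%, Ccnd1 in 9.05%, Ccng1 in 6.04%, Ccnd3 in 4.23% and Cdkn2c in 3.02%. On the unused barcodes, which are far shallower, shares with a UMI ran from 0% for Ccnd3 to 1.65% for Cdkn1b, apart from Cdk4 with 3.85%. Cdk4 gave 32 of the 72 member UMIs there and Ccnd2 gave 10, whereas in the cells Cdk4 had 658 and Ccnd2 1447 UMIs.

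Between the sorts, Cdkn1a showed the largest log2 fold change of the 9 members tested, with a higher level in Dlk1+ cells. Cdkn1a (chr17:29090976-29100727, plus strand, GRCm38) encodes p21, the inhibitor induced by p53. The Dlk1+ libraries had 240.2, 391, 358 and 173 CPM for replicates 1 to 4, and the Dlk1- libraries 116, 60.8, 119.9 and 172 CPM. All Dlk1+ libraries lay above all Dlk1- libraries, by about 1 CPM at the nearest pair (replicate 4 of each sort), and Dlk1+ replicate 4 was at 188 CPM without the barcode rich in myeloid markers. The means were 291 ± 102 and 117 ± 45.4 CPM (SD, n = 4 each), and on plate 5 they were 315 against 88.4 CPM, on plate 6 266 against 146 CPM.
In limma-voom over all 5666 genes tested Cdkn1a had a log2 fold change of 1.20 (standard error, SE, 0.31), which did not pass the threshold of a false discovery rate of 0.05 (adjusted p = 0.55, unadjusted p = 0.00113, place 11 of all genes by p). Leaving out Dlk1+ replicate 4 brought Cdkn1a past the threshold, with a log2 fold change of 1.54 (adjusted p = 0.0214 by limma-voom). In the other alternatives the adjusted p lay between 0.36 and 0.957. The share of cells with a Cdkn1a UMI was 34.6% to 44.4% in Dlk1+ and 22.2% to 31.3% in Dlk1- libraries.
At 2000 UMIs per cell these shares were 30.5%, 32%, 25.0% and 24.1% in Dlk1+ replicates 1 to 4, of which replicate 3 rests on 4 cells, and 19.4%, 8.82%, 20.7% and 15.9% in Dlk1- replicates 1 to 4. Groups did not overlap at this depth either, but how many of all genes do so at this depth was not computed.

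The other inhibitors did not pass the threshold either, and their differences went both ways. Cdkn1c (chr7:143458339-143461050, minus strand), the imprinted inhibitor p57, had 78.4, 117, 76.8 and 74.4 CPM in Dlk1+ replicates 1 to 4 and 61.8, 26.04, 73.6 and 58.7 CPM in Dlk1- replicates 1 to 4. The groups did not overlap in CPM, with 74.4 CPM as the lowest Dlk1+ and 73.6 CPM as the highest Dlk1- value. Only 3 UMIs stood behind the value of Dlk1+ replicate 3. These CPM are scaled to library totals alone. The fit scales totals further, by a factor of 1.14 in Dlk1+ replicate 4 (74.4 CPM) and 0.971 in Dlk1- replicate 3 (73.6 CPM). Divided by these factors, the Dlk1+ value falls below the Dlk1- value, so the groups overlap under the scaling of the fit. Shares of cells with a Cdkn1c UMI overlapped, at 11.5% to 31.4% in Dlk1+ and 13.9% to 31.6% in Dlk1- libraries. Cdkn1c had a log2 fold change of 0.59 (SE 0.31, adjusted p = 0.767 by limma-voom).
Cdkn1b (chr6:134920401-134925513, plus strand), the inhibitor p27 that is mostly controlled by protein turnover, averaged 99.98 ± 52.95 CPM over the Dlk1+ and 94.5 ± 26.2 CPM over the Dlk1- libraries, and the sorts overlapped. Dlk1+ replicate 3 gave the highest value at 179 CPM from 7 UMIs. Its log2 fold change of -0.18 (SE 0.29) became 0.01 without Dlk1+ replicate 4, so no direction can be given. Cdkn2c (chr4:109660876-109667189, minus strand), the Ink4 inhibitor p18, was below the filter on low counts. It had 12.6, 9.76, 0 and 17.5 CPM in Dlk1+ replicates 1 to 4, and 25.1, 17.4, 23.1 and 23.1 CPM in Dlk1- replicates 1 to 4. The ranges overlap by 17.5 against 17.4 CPM. In the fit with no filter its log2 fold change was -0.68 (SE 0.49, adjusted p = 0.655 by limma-voom). The 0 of Dlk1+ replicate 3 allows a level of up to 77.9 CPM (3 counts in its 38488 UMIs, counting error only).

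No D cyclin passed the threshold, and all 3 overlapped between the sorts. Ccnd2 (chr6:127125162-127152193, minus strand), the D cyclin that growth factor signals raise in blood cells, had 541, 605, 1075 and 578 CPM in Dlk1+ replicates 1 to 4 and 431, 391, 608 and 552 CPM in Dlk1- replicates 1 to 4. The groups overlap, and the highest value, that of the shallow Dlk1+ replicate 3, comes from 42 UMIs. Its log2 fold change was 0.41 (SE 0.24, adjusted p = 0.791 by limma-voom) and stayed positive in all 21 alternatives, between 0.06 and 0.54.
Ccnd1 (chr7:144929931-144939925, minus strand) varied widely within each sort, from 19.5 to 102 CPM in Dlk1+ and from 17.4 to 67.3 CPM in Dlk1- libraries. Its log2 fold change of 0.21 (SE 0.49) was -0.44 without Dlk1+ replicate 1. Ccnd3 (chr17:47505051-47599691, plus strand) had 22.7 and 45.97 CPM in Dlk1+ replicates 1 and 4 and 0 in replicates 2 (no row in its table) and 3, against 21.3 to 48.2 CPM in Dlk1- libraries. The zeros allow up to 30.1 and 77.9 CPM, which is within or above the Dlk1- range, and its log2 fold change was -0.76 (SE 0.51, adjusted p = 0.817 by limma-voom).

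Neither kinase passed the threshold, and the direction of Cdk6 between the sorts depended on the measure and on Dlk1+ replicate 3. Cdk4 (chr10:127063534-127067920, plus strand) had 215, 527, 666 and 267 CPM in Dlk1+ replicates 1 to 4 and 203, 109, 234 and 273 CPM in Dlk1- replicates 1 to 4. Replicates 2 and 3 of Dlk1+ were high, and the groups overlapped through the other 2 libraries. Its log2 fold change was 0.84 (SE 0.31, adjusted p = 0.701, unadjusted p = 0.0156 by limma-voom), and 0.52 without Dlk1+ replicate 3.
Cdk6 (chr5:3341485-3531008, plus strand) had 149, 176, 614 and 261 CPM in Dlk1+ replicates 1 to 4 and 234, 243, 339 and 268 CPM in Dlk1- replicates 1 to 4. Dlk1+ replicate 3 was again far above the rest of its sort, from 24 UMIs. The log2 fold change was -0.24 (SE 0.29, adjusted p = 0.892 by limma-voom) and stayed negative in all 21 alternatives, between -0.42 and -0.099. The mean CPM, in contrast, was higher in Dlk1+ (299.98 against 271). On plate 5 the log2 ratio of the means was -0.55 and on plate 6 it was 0.53. Plate 6 holds Dlk1+ replicate 3, while Dlk1+ replicate 4 (261 CPM) lay below both Dlk1- libraries there (339 and 268 CPM). The share of cells with a Cdk6 UMI was 33.3% to 53.8% in Dlk1+ and 55.8% to 66.7% in Dlk1- libraries. Median UMIs per cell were 1295.5 to 4862 in Dlk1+ and 4595 to 5521 in Dlk1- libraries, and the part of depth in this was not tested. Thinned to 2000 UMIs it overlapped, with 18.3% to 50% against 17.6% to 37.0%. Ccng1 (chr11:40748552-40755311, minus strand), a p53 target that binds a phosphatase rather than driving G1, had 16.97 ± 14.8 and 31.1 ± 14.7 CPM and a log2 fold change of -0.47 (SE 0.43). Bysl, Tspan31 and antisense transcripts lie on the other strand of Ccnd3, Cdk4 and Cdk6, at 12.2 CPM, 2.33 CPM and below 1 CPM, and whether the counting used strand is not given in the sources used here. The annotation also holds a pseudogene of Ccnd3, which makes that count uncertain.

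Across the whole set, 0 of the 9 members tested passed the threshold, against 2 of all 5666 genes (0.0353%), Dlk1 and Timp3. At an unadjusted p under 0.05 there were 2 members, Cdkn1a and Cdk4, both higher in Dlk1+, where 131 of all genes (2.31%) were higher at that level and 368 differed in either direction. CPM did not overlap between the sorts for 2 members, Cdkn1a and Cdkn1c, both higher in Dlk1+, against 63 genes (1.11%) higher and 115 (2.03%) lower among all tested. These CPM are scaled to library totals alone, and under the scaling of the fit Cdkn1c overlapped. Shares of cells with a UMI did not overlap for Cdkn1a, higher, where 12 of all genes (0.212%) did so, and for Cdk6, lower, where 274 (4.84%) did so. The median log2 fold change was 0.21 over the 9 members and -0.04 over all genes tested. Of the 9 members 5 were higher and 4 lower in Dlk1+.

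**Figure D2:**
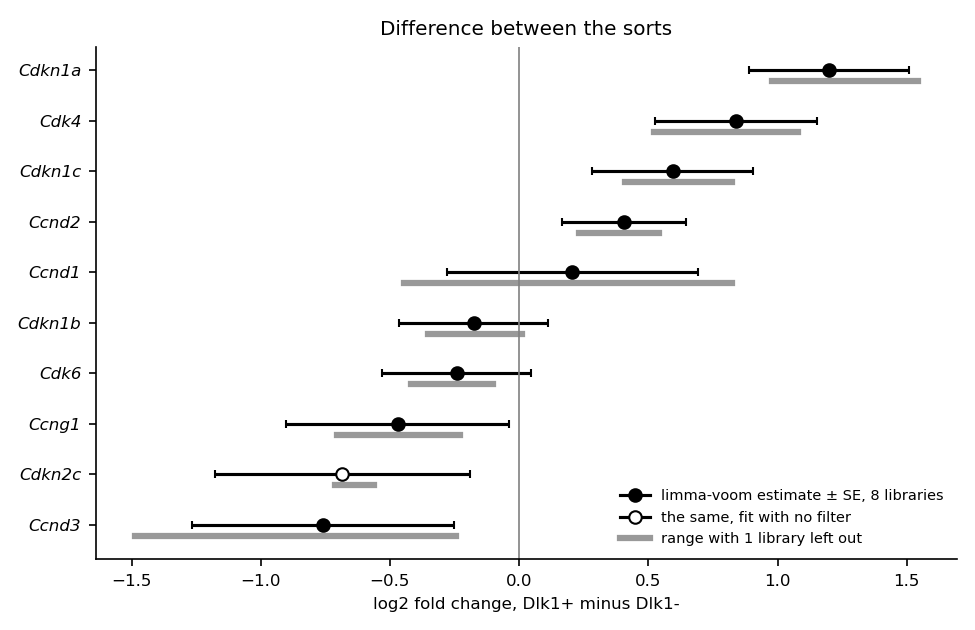
Log2 fold change, Dlk1+ minus Dlk1-, of each gene by limma-voom with its standard error (black; open for Cdkn2c, which was below the filter and is read from the fit with no filter), and the range when 1 library is left out (grey). Cdkn1a lies highest at 1.20 with a range of 0.98 to 1.54, and the ranges of Ccnd1 and Cdkn1b cross 0.

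D cyclin transcripts outnumbered inhibitor transcripts in the LT-HSC of every library. Over all cells there were 907 UMIs of the 4 inhibitors and 1671 of the 3 D cyclins. Of the latter, 1447 were of Ccnd2, 136 of Ccnd1 and 88 of Ccnd3. Without Ccnd2, inhibitor UMIs would thus outnumber those of the D cyclins. Inhibitor UMIs per D cyclin UMI were 0.603, 0.953, 0.522 and 0.52 in Dlk1+ replicates 1 to 4 and 0.531, 0.476, 0.429 and 0.589 in Dlk1- replicates 1 to 4. Dlk1+ replicate 2 came nearest to parity, with 61 inhibitor and 64 D cyclin UMIs, and the groups overlapped. The means were 0.65 ± 0.206 and 0.506 ± 0.0693 (SD, n = 4 each). On the log2 scale the difference was 0.32, and it fell to 0.12 without Dlk1+ replicate 2. As a score over chosen genes the balance has no test.

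The make-up of the inhibitor side did not overlap between the sorts, whereas that of the D cyclin side did. Ccnd2 alone made up 81.7% to 96.9% of D cyclin UMIs in Dlk1+ and 86.01% to 87.4% in Dlk1- libraries. Cdkn1a made up 60.1%, 65.6%, 58.3% and 50.97% of inhibitor UMIs in Dlk1+ replicates 1 to 4, and 43.8%, 28.6%, 39.6% and 45.8% in Dlk1- replicates 1 to 4, without overlap. Per Cdkn1b UMI there were 2 to 5 Cdkn1a UMIs in Dlk1+ and 0.56 to 1.88 in Dlk1- libraries, again without overlap.
With Cdkn1a left out of the inhibitors, the balance turned: 0.26 ± 0.0478 inhibitor UMIs per D cyclin UMI in Dlk1+ and 0.304 ± 0.0345 in Dlk1- libraries. Among the kinases, Cdk6 UMIs per Cdk4 UMI were 0.694, 0.333, 0.923 and 0.975 in Dlk1+ replicates 1 to 4 and 1.15, 2.24, 1.45 and 0.985 in Dlk1- replicates 1 to 4. Every Dlk1+ library lay below every Dlk1- library, by 0.975 against 0.985 at the nearest, and Dlk1+ replicate 4 was at 0.926 without the barcode rich in myeloid markers. The ratio of Ccnd1 to Ccnd2, the last of the 3 pair ratios computed, overlapped between the sorts (0.0323 to 0.182 and 0.0444 to 0.111). These ratios are made from the same UMIs as the levels above and are no separate evidence. How often ratios of other genes fail to overlap between the sorts was not computed, so their non-overlap cannot be weighed against a background.

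**Figure D3:**
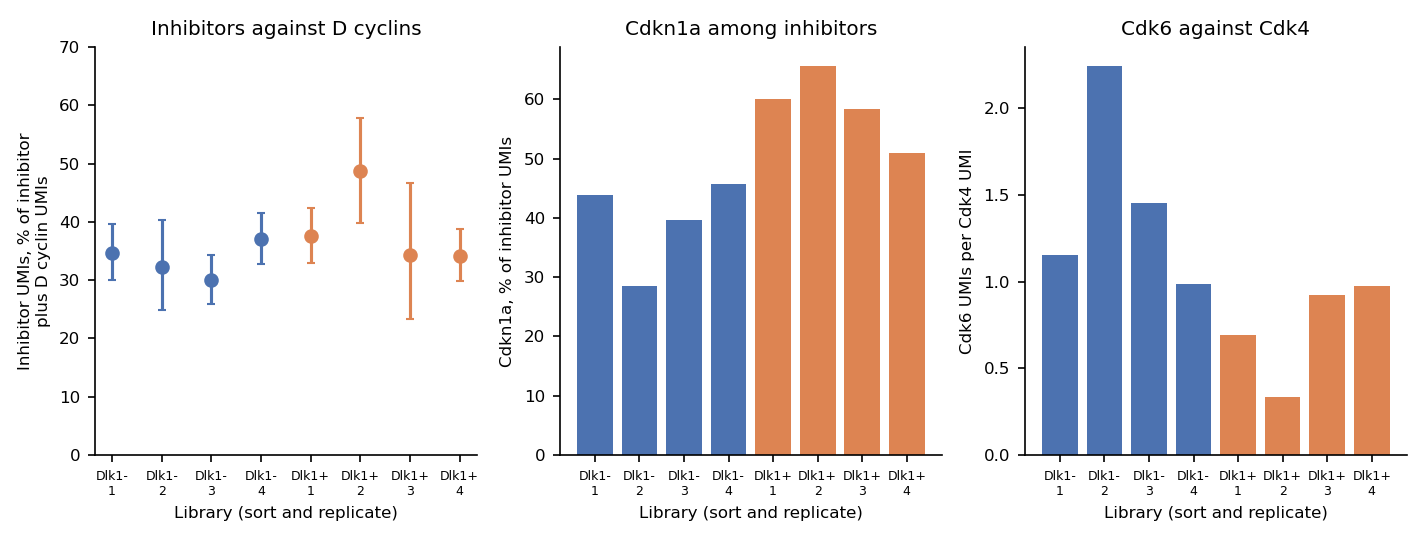
Left, inhibitor UMIs as a percent of inhibitor plus D cyclin UMIs in each library, with exact 95% binomial intervals that cover counting error only; middle, Cdkn1a as a percent of inhibitor UMIs; right, Cdk6 UMIs per Cdk4 UMI (Dlk1- blue, Dlk1+ orange). Inhibitors stay below 50% in all 8 libraries, with Dlk1+ replicate 2 highest at 48.8%, while Cdkn1a takes 50.97% to 65.6% in Dlk1+ and 28.6% to 45.8% in Dlk1- libraries.

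Over all single cells, more held a surplus of D cyclin than of inhibitor UMIs, but not in Dlk1+ replicate 2. At 2000 UMIs per cell, 48.5% of the 497 cells had more D cyclin than inhibitor UMIs, 21.1% had more inhibitor UMIs, 10.9% had equal numbers above 0 and 19.5% had neither. Cells with more inhibitor UMIs made up 19.5%, 44.0%, 25.0% and 21.5% in Dlk1+ replicates 1 to 4 and 22.6%, 17.6%, 17.4% and 19.3% in Dlk1- replicates 1 to 4. Cells with more D cyclin UMIs made up 40% in Dlk1+ replicate 2, and 41.2% to 52.3% in the other 7 libraries. The 44.0% of Dlk1+ replicate 2 is 11 of 25 cells, and the 25.0% of replicate 3 is 1 of 4. The difference of the means was 8.27 percentage points, and 2.78 without Dlk1+ replicate 2, with overlapping groups.

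Cdkn1a was spread over cells less evenly than most genes of like abundance. The variance of its UMIs per cell divided by their mean (the Fano factor, 1 if every cell draws from one level) averaged 1.92 (1.25 to 2.60) over the 7 libraries with at least 20 such cells. Of 568 genes whose mean lay within 1.5 times that of Cdkn1a, with a median factor of 1.09, 6 had a higher one. In total 20 cells with 3 or more Cdkn1a UMIs, 13 of them Dlk1+, held 39.8% of its UMIs, and 390 cells held none. Ccnd2, the most abundant member, had a factor of 1.22, place 51 of 114 genes of like mean. Cdkn1c, at 1.41, was in place 25 of 1789, about as high among its like. Cdk6 had 1.55 (place 19 of 410), Cdk4 1.42 (place 31 of 365) and Cdkn1b 1.26 (place 70 of 1480), with ranges over libraries that overlap that of Cdkn1a, and Ccnd1, Ccnd3, Ccng1 and Cdkn2c were near 1 (0.951 to 0.982).

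The members were seen together in a cell about as often as their separate shares give. A cell showed a median of 2 and at most 5 of the 10 genes, and 57.7% of cells showed no inhibitor, 34.2% showed 1 and 7.85% showed 2. Over the 45 pairs, cells with both genes summed to 794, and the product of the 2 shares within each library summed to 791, a ratio of 1.00. For pairs of inhibitors the sums were 42 and 42.7, for an inhibitor with a D cyclin 201 and 192.1, for an inhibitor with a kinase 156 and 161, for a D cyclin with a kinase 247 and 242, and for pairs of D cyclins 38 and 42.4, the class farthest from equality. The products carry no test, since cells are not replicates.
Among the 21 pairs with a product of at least 10 cells, the ratio ran from 0.689 for Cdkn1c with Cdk4 (15 cells against 21.8, below in 5 and above in 1 of 7 libraries) to 1.39 for Cdkn1a with Ccnd1 (15 cells against 10.8, above in 3 and below in 3). Cdkn1c with Cdk6 was also below, with 14 cells against 17.9, in 5 of 7 libraries. Ccnd2 with Cdk4, the commonest pair, was seen in 115 cells against 109, above in 5 of 7 libraries. The sum over pairs rose to a ratio of 1.10 at 1000 UMIs per cell and 1.08 with all UMIs, where cells of unequal depth are mixed.

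**Figure D4:**
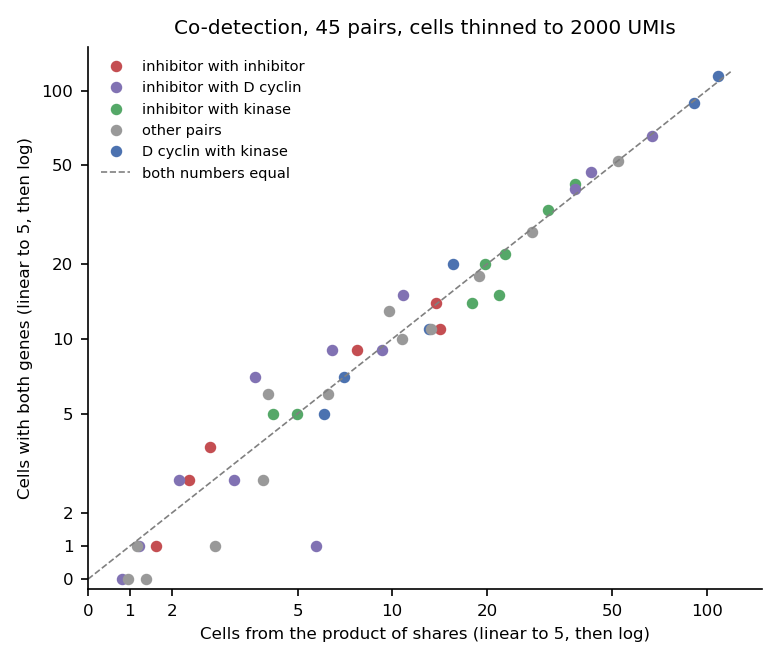
Cells with both genes of a pair against the number given by the product of the 2 shares within each library, for 45 pairs over 497 cells at 2000 UMIs each (both axes linear to 5, then logarithmic; colours are pair classes). Points lie along the line of equality, from 0 up to Ccnd2 with Cdk4 at 115 against 109 cells.

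Cells rich in mitotic transcripts held more Cdk6 and less Ccnd2 than the rest. A total of 25 cells had 3 or more UMIs of 12 G2 and mitosis genes (Mki67, Top2a and others) after thinning. The number 3 was chosen after the values were seen, with 1 cell exactly at 3 and 11 at 2. They came from 7 libraries, 10 cells from Dlk1+ (5, 2, 0 and 3 in replicates 1 to 4) and 15 from Dlk1- (8, 3, 3 and 1). Means by library thus rest on 1 to 8 of these cells. Ccnd2 was seen in 28.0% of them (exact 95% interval 12.1 to 49.4) and in 63.8% (59.3 to 68.1) of the other 472 cells. Its mean was lower than in the other cells in 7 of 7 libraries, 0.36 against 1.12 UMIs per cell over all.
Cdk6 was seen in 60.0% (38.7 to 78.9) against 28.2% (24.2 to 32.5), with a higher mean in 6 of 7 libraries. Cdk4 averaged 1.0 against 0.456 UMIs per cell, higher in 4 of 7 libraries. Among the inhibitors, Cdkn1b averaged 0.36 against 0.169 UMIs per cell, higher in 5 of 7 libraries, and Cdkn1a 0.16 against 0.386, lower in 6 of 7. Both depend on the number chosen: in the 86 cells with 1 or more mitotic UMIs, Cdkn1a averaged 0.372 against 0.375 UMIs per cell, and Cdkn1b 0.221 against 0.17, higher in 3 of 7 libraries. Cdkn2c was seen in 3 of the 25 and in 12 of the 472 cells. Together the 25 cells held 21 inhibitor and 11 D cyclin UMIs, the other cells 344 and 597. The excess of inhibitors over D cyclins was not there in the 86 cells with 1 or more mitotic UMIs. They held 70 inhibitor and 77 D cyclin UMIs (47.6% inhibitor). The 411 cells with no mitotic UMI held 295 and 531, so the inhibitor part was still larger in the 86 cells. Intervals cover counting error only and cells are not replicates, so these are descriptions with no test. The barcode rich in myeloid markers was one of the 25, and without it inhibitors were 72.4% of their inhibitor plus D cyclin UMIs, against 65.6% with it.
In total 35 cells had 5 or more UMIs of 14 S phase genes (a number also chosen after the values were seen). In these, Cdk6 averaged 1.29 against 0.39 UMIs per cell and was higher in 7 of 8 libraries, while Ccnd2 averaged 1.0 against 1.09. Cdkn1b averaged 0.0571 against 0.188, from 2 UMIs in the 35 cells. The other inhibitors had higher means over all cells, but no one direction by library. Cdkn1a averaged 0.4 against 0.372, higher in 3 and lower in 5 of 8 libraries. Cdkn1c averaged 0.286 against 0.141 (higher in 3, lower in 3). Cdkn2c averaged 0.0571 against 0.0281, from 2 UMIs in the 35 cells (higher in 2, lower in 4). All inhibitors together averaged 0.8 against 0.729, higher in 4 and lower in 4 of 8 libraries. Shares of the 25 cells by library ran from 0% to 8% in Dlk1+ and from 1.14% to 8.82% in Dlk1- libraries.

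**Figure D5:**
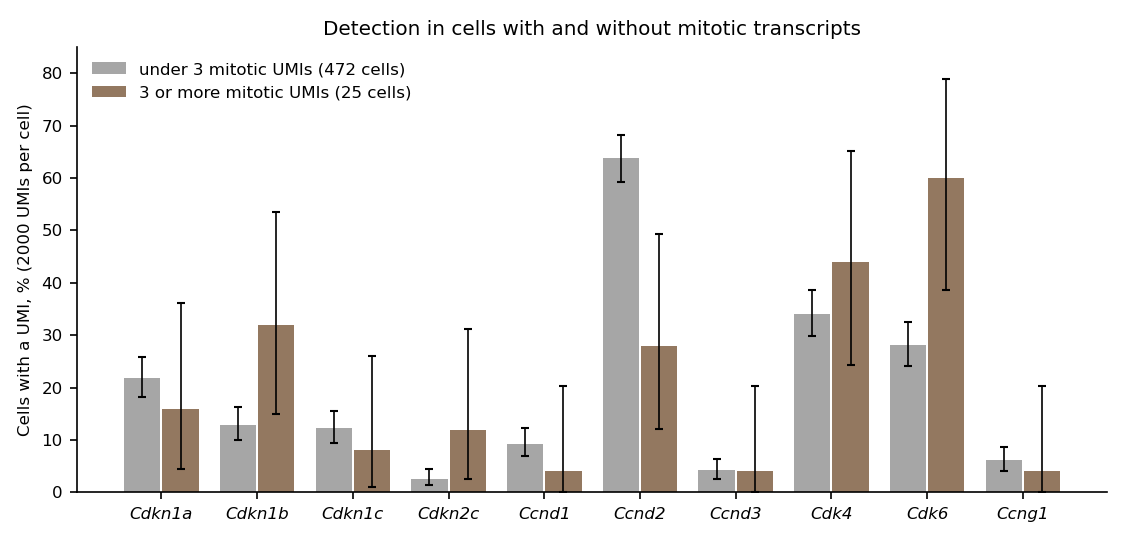
Percent of cells with a UMI of each gene at 2000 UMIs per cell, in 472 cells with under 3 (grey) and 25 cells with 3 or more mitotic UMIs (brown), with exact 95% binomial intervals for counting error only. Ccnd2 is seen in 28.0% of the mitotic against 63.8% of the other cells, and Cdk6 in 60.0% against 28.2%.

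The wider pathway gave no gene past the threshold with all 8 libraries. Of 105 listed genes in 10 lists 58 were tested and 0 were called in either direction, as were 0 members. Cdkn2a and Cdkn2b, the Ink4 inhibitors tied to senescence, had no row in the tables used here, and Cdkn2d had 34.2 CPM with a log2 fold change of -0.19. Of 4 tested G1/S cyclins and kinases the median log2 fold change was 0.20 (Ccna2 0.68, Ccnh 0.51), and of 4 tested RB and E2F genes it was -0.10 (Tfdp2 -0.50, E2f4 -0.84). Ccne1 and Ccne2, the E cyclins that act after the D cyclins, were below the filter at 4.60 and 4.32 CPM, and were named after their values were seen.
Of 6 tested genes of p53 and its targets, 2 were higher and 4 lower, with a median of -0.11 beside the 1.20 of Cdkn1a. Trp53 had a log2 fold change of 0.22 and Btg2 of -0.30, and Mdm2, another target of p53 and named after its value was seen, had 0.03. Regulators of quiescence such as Txnip (-0.88) and Klf6 (0.38) had a median of -0.30 over 9 tested. Genes of p27 turnover had a median of 0.09 over 7 tested, with Skp1a at -0.30 and Rbx1 at 0.09. Growth inputs had a median of -0.09 over 7 tested, with Mycn at -0.09 and Akt1 at 0.18. Myc and Stat5a, named after their values were seen, were the 2 of these with an unadjusted p under 0.05, at -1.61 (adjusted p = 0.56 by limma-voom) and -0.93 (0.701). Without Dlk1+ replicate 4, the setting in which Cdkn1a passed, Myc passed too, at -2.64 (adjusted p = 0.00785 by limma-voom), and it was the 1 listed gene to do so in any alternative.
The S phase list had a median of 0.16 over 9 tested (Pcna 0.12, Mcm7 0.71) and the G2 and mitosis list 0.40 over 9 (Top2a 0.89, Mki67 0.48). Of the imprinted neighbours of Cdkn1c, Kcnq1ot1, the RNA of the paternal allele, was at -0.20 and Nap1l4 at -0.15, neither past the threshold (adjusted p = 0.906 and 0.942 by limma-voom).

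The genes whose UMIs varied most like a member's from cell to cell were found for the 6 members seen in at least 10% of thinned cells. Likeness was Pearson's r of log2(UMI + 1) across cells, averaged over 7 libraries (6 for Cdkn1c, which had no UMI in the thinned cells of Dlk1- replicate 2), among 2462 genes (2479 for Cdkn1c). For Cdkn1a they were Nr4a1 (mean r 0.307, range 0.0261 to 0.541), Btg2 (0.284) and Fos (0.245, range 0.116 to 0.362). For Ccnd2 they were Rpl23 (0.262, range -0.00896 to 0.44), Rpl37 (0.245) and Rps27a (0.224). For Cdk4 they were Srek1 (0.244, range -0.0223 to 0.641), Gm3839 (0.218) and H2afz (0.206). For Cdk6 they were Coro1a (0.23, range 0.0184 to 0.662), Tram1 (0.226) and Ogdh (0.223). Cdkn1b (Mylk at 0.198, Mrpl19 at 0.192, Clint1 at 0.183) and Cdkn1c (Strbp at 0.197, Psma2 at 0.185, Hcls1 at 0.183) had no gene at 0.2 or above. The median size of r over all genes was 0.0346 to 0.0418, which does not tell how high the highest of so many would lie. The genes named were picked by these same values, so their size and sign are no separate evidence. Between members, which were not picked by r, it ran from -0.08 for Cdkn1c with Cdk6 to 0.07 for Cdkn1a with Cdk6. Cells of a library share its preparation, the counts are sparse, and these values carry no test.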

How the data were processed

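Single-cell RNA of 8 libraries of LT-HSC was analysed. Each library has 1 table, in which the authors deposited estimated counts of transcripts by gene and barcode, corrected for UMI collisions and not scaled for depth. Inverting the correction for 4096 possible UMIs gave whole counts within 3.64e-12 (tolerance 1e-06). BWA 0.6.2-r126 and build mm10 are named, with no role, per the submitters' processing notes; read filters and annotation are not given in the sources used here. No doublet caller was run. Gene positions are from GENCODE vM21 (GRCm38). The members and gene lists were chosen with earlier results of these data known.

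Transcripts were summed per library, scaled by trimmed mean of M-values and tested with limma-voom (limma 3.58.1, R 4.3.3), with sort as the only term and Benjamini-Hochberg adjustment over all genes. A gene was tested if, in 4 or more libraries, its CPM was no lower than 10 counts would give in a library of median size, and if its counts summed to 15 or more. The fit was tested on simulated data. Shares and co-detection used cells thinned to 2000 UMIs (Python 3.11.15, numpy 2.4.6, scipy 1.17.1, pandas 2.3.3). Floors are 3 counts and intervals are exact binomial at 95%, both for counting error only. All 10 members are named. Of the other pathway genes the text names those past the threshold, up to 2 per list with the highest mean CPM, and, for each member seen in at least 10% of thinned cells, the 3 genes most alike; others are said to be named after their values were seen. Unused columns of per-sample values numbered 0. Alternatives were other scalings, filters, tests, blocks, cell minimums, thinning depths, barcodes and each library left out.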

Additional observations from a re-analysis of the deposited data

Results flagged for a closer look

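Of 28 groups of 4 libraries looked at (14 measures in each sort), 3 held a library far from the other 3 by its gap relative to the range, where chance gives about 1 in 20. Cdkn1b had 179 CPM in Dlk1+ replicate 3, against 68.3, 78.1 and 74.4 CPM in the other Dlk1+ libraries. Ccnd2 had 1075 CPM in the same library, which is the shallow one with 38488 UMIs, so that these values rest on 7 and 42 UMIs. Cdkn1c had 117 CPM in Dlk1+ replicate 2, from 12 UMIs in 27 cells, against 74.4 to 78.4 CPM in the other 3.

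Signal of the members also appeared on barcodes where the Dlk1- libraries held no sorted cells. Barcodes 17, 20 to 24 and 29 to 32 carried 1.15 member UMIs per barcode in these 4 libraries, against 0.0989 on the other unused barcodes. These barcodes were also deeper, with 25978 UMIs in all against 23663 on the 728 others, and the members' share of UMIs was lower on them, 0.177% against 0.304%. Of those 46 UMIs, 24 were of Cdk4, 11 of Cdkn1c, 7 of Cdkn1b and 0 of Ccnd2, the most abundant member in the cells.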

How the results depend on the processing

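The edgeR and DESeq2 alternatives were not run, since the unit was not taken as checked from the layout of the tables. The values did invert to whole UMI counts, and limma-voom on those counts called 2 genes, Dlk1 and Timp3. Of the member log2 fold changes under the alternatives, 187 of 190 kept their sign. With a library left out, Cdkn1b ran from -0.35 to 0.010, positive when Dlk1+ replicate 4 was dropped. Ccnd1 ran from -0.44 (Dlk1+ replicate 1 dropped) to 0.82 (Dlk1+ replicate 4 dropped), with -0.0043 when Dlk1- replicate 2 was dropped. The number of members called was 0 in 20 of 21 alternatives and 1 (Cdkn1a) without Dlk1+ replicate 4, so that leaving out a library gave 0 to 1. The number of all genes called was 2, and 1 to 19 with a library left out: 19 without Dlk1+ replicate 4 (5 higher and 14 lower) and 1 without Dlk1+ replicate 2 or Dlk1- replicate 3. It was 0 with limma-trend (316 genes at an unadjusted p under 0.05), 1 at a minimum of 2000 transcripts or thinned to 2000 UMIs, 4 with the 10 barcodes and 3 with no filter on low counts. The replicate block gave 1. Libraries with the same number deviated together with r of 0.0746, 0.0566, 0.0325 and 0.112 over 5666 genes. These values were small but all positive, and 7 of 8 libraries correlated best with the library of their own number in the other sort. The numbers may thus mark pairs, which the main fit, with sort as its only term, does not take into account. What such pairs would share was not tested. With the replicate block Cdkn1a stayed higher in Dlk1+ but did not pass the threshold, and its adjusted p by limma-voom was above that of the main fit. The balance difference of 0.32 was -0.23 without Cdkn1a and 0.95 without Ccnd2, and 0.12 to 0.41 with a library left out. It had the same sign in the other 16 alternatives. The difference in the share of cells with more inhibitor UMIs was 2.78 to 10.9 percentage points over all alternatives. The co-detection ratio was 1.10 at 1000 UMIs, 1.08 with all UMIs and 0.991 to 1.01 with a library left out. Leaving out the barcode rich in myeloid markers, added after seeing the data, changed no call. Depth limits the members most in Dlk1+ replicate 3, where 3 UMIs correspond to 77.9 CPM.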
